A study of Mus musculus with 9 samples.

Results

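The genes described here are the mouse genes named Zfp followed by digits alone, a naming series that holds a large part of the mouse zinc finger genes, measured on 9 Affymetrix arrays of NIH 3T3 cells, an established line of mouse embryonic fibroblasts. They were selected on their name and on the measured intensities: a probe set had to map to 1 such symbol, Zfp36 excepted, and to be brighter than the 40th percentile of an array on 3 or more of the 9 arrays. Of 574 such probe sets for 304 genes on the array, 457 probe sets for 271 genes were kept, out of 45101 probe sets in all and 27010 tested. The other 117 probe sets were too dim, and 33 genes had no probe set kept. Of those kept, 448 passed on all 9 arrays and 9 on fewer, and 0 passed through the arrays of a single group.

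All cells were serum-starved and were kept in cycloheximide, which blocks protein synthesis, for 2 h (3 µg/ml), the controls included. The 3 control cultures received no further drug. Cytochalasin D, which caps actin filaments and frees the coactivator MRTF from actin monomers, was given to 3 cultures at 2 µM for 90 min. Another 3 cultures received latrunculin B at 5 µM, which binds actin monomers, and cytochalasin D at 2 µM, each for 90 min. Their sample titles name latrunculin B alone, whereas the agent label names both, and they are called the double-drug group here. The series design describes the 3 arrays of a group as independent biological replicates, and the labels number them 1, 3 and 7. Fibroblast markers were bright on every array (14 of 14 tested, summed intensity 143900 to 153800 in controls, 145500 to 151300 with cytochalasin D and 145500 to 148700 in the double-drug group), and 0 of them were called in any contrast. Endothelial markers summed to at most 29.2 on any array, with 0 of 6 tested. Epithelial markers, with 2 of 6 tested, summed to at most 45.6. Macrophage and leukocyte markers summed to 368 to 440 in controls, 279 to 381 with cytochalasin D and 330 to 386 in the double-drug group, with 4 of 7 tested. Of these, the pan-leukocyte marker Ptprc and Itgam were near the array floor (means of 5.07 to 5.14 and of 5.23 to 5.27), as was Cd68 (4.79 to 6.54), with Adgre1 at 8.10 to 8.78. Cd14 had means of 196, 148 and 178 in control, cytochalasin D and the double-drug group, Lyz2 of 138, 119 and 116, and Csf1r of 41.8, 42.3 and 42.2. None of the 4 tested was called, and the part of these markers in the results was not tested.

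Zinc finger proteins of the C2H2 type bind DNA through tandem fingers, each folded around a zinc ion. Many of the numbered Zfp genes encode KRAB zinc finger proteins, which recruit the corepressor Trim28 and histone methylation to silence transposable elements and some genes, and which lie in groups that arose by tandem duplication. Their transcripts are often described as short-lived, so that a change in transcription can show in the RNA within a short treatment. Transcript half-lives were not analysed here. The question asked of the 3 groups was whether these transcripts fell under the drugs.

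Promoter stretches are shown for 7 genes, because they carry the sequence features that the values below are set against. They come from RefSeq on GRCm38.p6, whose windows reach from 250 bases before to 50 bases after each annotated start and which gave a window for 224 of the 271 genes. Each stretch is printed 5′ to 3′ along the gene's strand and ends before the start. Zfp644, which rose with cytochalasin D, is shown with its CArG box in capitals, the motif of serum response factor, to which MRTF binds (chr5:106696848-106696957, minus strand).
Zfp644: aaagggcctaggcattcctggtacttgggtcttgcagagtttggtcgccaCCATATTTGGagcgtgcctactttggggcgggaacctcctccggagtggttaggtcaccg
Zfp54 and Zfp53, neighbours that both fell with cytochalasin D, are shown with the words of at least 8 bases that both stretches hold in capitals (chr17:21423076-21423185 and chr17:21488807-21488916, both on the plus strand).
Zfp54: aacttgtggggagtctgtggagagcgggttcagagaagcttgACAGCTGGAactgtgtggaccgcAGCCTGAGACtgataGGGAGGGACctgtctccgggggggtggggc
Zfp53: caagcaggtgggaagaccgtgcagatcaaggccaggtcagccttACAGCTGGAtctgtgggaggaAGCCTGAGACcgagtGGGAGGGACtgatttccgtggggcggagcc
Zfp128, Zfp748, Zfp692 and Zfp1 stand for the genes whose window holds the binding motif of Zfp143, a zinc finger activator of many promoters, with the motif (ACTACA, any 1 base, TTCC) or its reverse complement in capitals (chr7:12881143-12881177 on the plus strand, chr13:67553153-67553197 on the minus strand, chr11:58307001-58307051 on the plus strand and chr8:111643398-111643442 on the plus strand).
Zfp128: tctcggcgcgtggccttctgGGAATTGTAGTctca
Zfp748: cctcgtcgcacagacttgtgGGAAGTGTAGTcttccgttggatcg
Zfp692: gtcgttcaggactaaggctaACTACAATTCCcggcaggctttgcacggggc
Zfp1: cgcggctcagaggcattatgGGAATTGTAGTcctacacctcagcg

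With cytochalasin D, 10 numbered Zfp genes fell and 6 rose against control. The falls were of at most 0.94 on the log2 scale (Zfp472), and the largest rise was 1.90 (Zfp568). In probe sets, 11 of the 457 were called lower, 2.41%, against a background of 0.422% of all probe sets tested, and 9 were called higher, 1.97%, against 1.14%. A call is an adjusted p under 0.05 from limma on log2(intensity + 16), a scale that makes changes of dim probe sets smaller. At an unadjusted p under 0.05, 70 members were lower, 15.3% against a background of 5.65%, and 22 were higher, 4.81% against 4.54%. These counts describe the members that passed the intensity threshold and were not tested as a set. Without control replicate 3, control replicate 7 or cytochalasin D replicate 3, the number called lower was 5 in each case, whereas the number called higher stayed between 6 and 9 when any 1 array was left out. The share of all probe sets called in those fits is not given here, so whether the distance from the background changed cannot be read from these counts.

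The shift of the whole group was small. The median log2 change of the 457 probe sets with cytochalasin D was -0.039, against -0.001 over all probe sets tested, and 66.5% of the members lay below 0 against 54.4% of all. Falls of 0.5 or more were seen in 21 members, 4.60% against 1.16% of all, and rises of 0.5 or more in 11, 2.41% against 2.58%. With 1 probe set per gene, the one with the highest mean, 205 of 271 genes lay below 0 (75.6%, median -0.099), against 58.0% of 12651 genes on the array (median -0.004). The share of members below 0 ranged from 63.7% to 69.6% over the alternatives that leave out 1 array, but the share of all probe sets moved more, from 45.3% to 59.9%. Without control replicate 3 the shares were 63.7% and 59.7%, and without control replicate 1 they were 65.9% and 45.3%, so the distance between members and all probe sets depended on single control arrays. Before the intensity threshold, the 574 probe sets had a median of -0.008 and 62.2% lay below 0, against 48.8% of all probe sets with no filter. The median member intensity per array was 63.1, 75.3 and 71.0 in controls, 63.6, 60.2 and 63.9 with cytochalasin D and 62.2, 67.8 and 70.5 in the double-drug group. Control replicate 1 lay within the range of the cytochalasin D arrays, so these medians overlapped between all groups. In bulk RNA, fewer cells with a transcript and less of it per cell cannot be told apart.

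**Figure D1:**
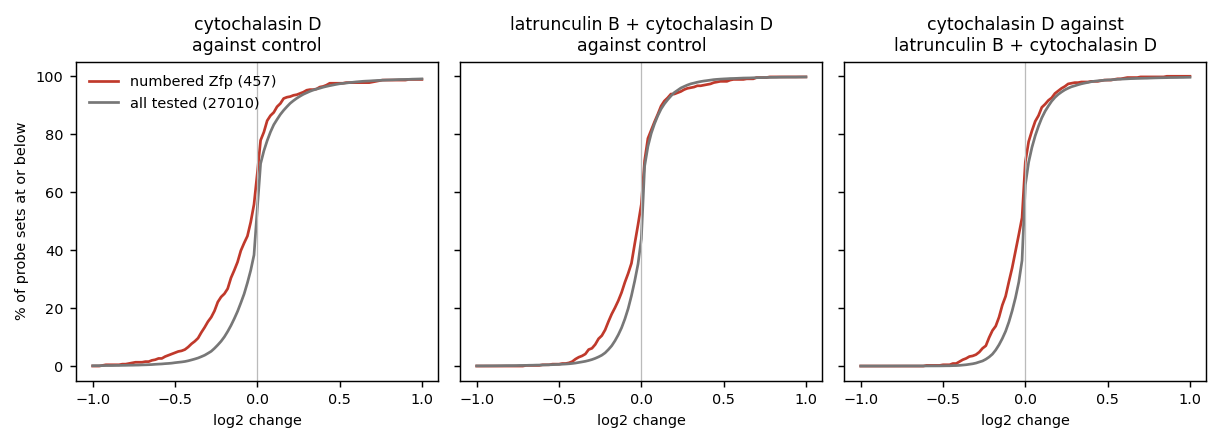
Cumulative share of probe sets (y axis, percent) at or below each log2 change (x axis) for the 457 numbered Zfp probe sets and all 27010 tested, in the 3 contrasts. In cytochalasin D against control the Zfp line lies above the other for most falls, with 66.5% against 54.4% below 0, and both lines meet near a rise of 0.5.

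The median shift differed between intensity ranges, whereas the share of members below 0 exceeded that of all probe sets in each range. Of 137 members with a mean intensity under 20, 63.5% lay below 0, against 53.0% of all in that range. Their median was only -0.004, on a scale that makes dim changes smaller, and 0 were called. The 125 members between 20 and 100 had a median of -0.095 (67.2% below 0), against -0.017 (55.1%) for the 4472 probe sets of that range. The 195 members at 100 or more had a median of -0.108 (68.2% below 0), against -0.020 (55.0%) for 13135. Of the 20 calls, 18 were in the brightest range, 9 lower and 9 higher.

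**Figure D2:**
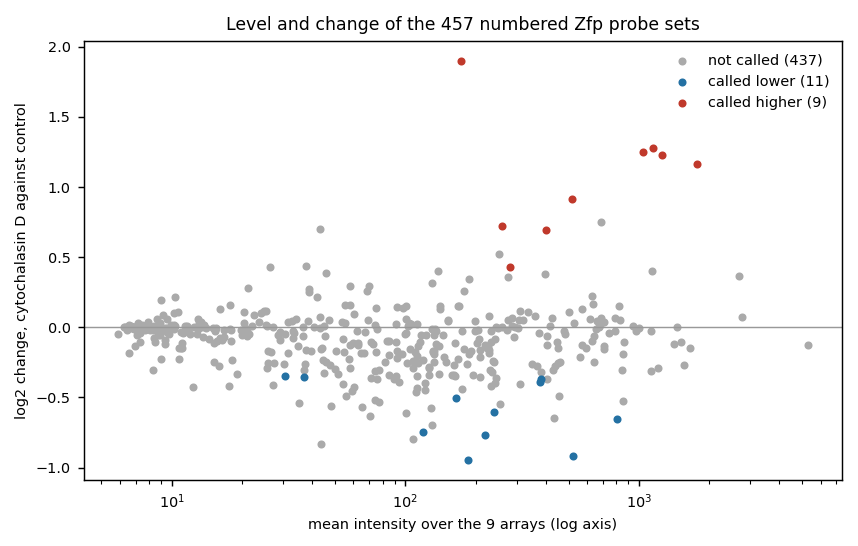
Log2 change in cytochalasin D against control (y axis) by mean intensity over the 9 arrays (x axis, log scale), 1 point per numbered Zfp probe set. The 11 probe sets called lower lie between -0.94 and -0.35, and the 9 called higher between 0.43 and 1.90.

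Among the genes that rose, Zfp568, a KRAB zinc finger repressor needed in the early mouse embryo, changed most. Its probe set 1435091_at read 59.3, 71.6 and 71.0 in controls, 308, 241 and 342 with cytochalasin D and 145, 145 and 178 in the double-drug group. The 3 groups did not overlap, and the double-drug arrays lay between the other groups. The log2 change with cytochalasin D was 1.90 ± 0.14 (SE; adjusted p = 0.00191), a ratio of means of 4.42. A second, dim probe set of the gene, 1459929_at, had means of 7.77, 11.3 and 8.0 and was not called (log2 change 0.20, adjusted p = 0.250).

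Zfp281, a zinc finger factor known from pluripotent cells, rose on both of its probe sets. The first, 1452045_at, read 741, 730 and 579 in controls, 1724, 1669 and 1630 with cytochalasin D and 1085, 1090 and 1128 in the double-drug group. Its log2 change with cytochalasin D was 1.28 ± 0.090 (adjusted p = 0.00174). The second, 1426377_at, read 553, 678 and 593 in controls, 1337, 1441 and 1633 with cytochalasin D and 956, 1158 and 1039 in the double-drug group, with a log2 change of 1.25 ± 0.11 (adjusted p = 0.00337). On both probe sets the 3 groups were apart, in the same order.

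Zfp644, whose human counterpart is known as a partner of the histone methyltransferases G9a and GLP, rose on 3 of its 6 probe sets. Probe set 1429623_at read 740, 790 and 807 in controls, 1599, 1770 and 2212 with cytochalasin D and 1035, 1082 and 1284 in the double-drug group (log2 change with cytochalasin D 1.23 ± 0.13, adjusted p = 0.00712). The calls of 1419984_s_at (1.16, adjusted p = 0.0326) and 1436985_at (0.91, adjusted p = 0.0203) were each lost when any 1 of 7 and any 1 of 6 arrays, respectively, was left out. The remaining 3 probe sets had cytochalasin D means of 11.9, 9.24 and 44.7, and their log2 changes of 0.11, 0.033 and 0.27 were not called. Zfp644 was the only called gene among the 3 numbered Zfp genes with a CArG box in their window, the others being Zfp619 and Zfp871.

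The other genes that rose changed less. Zfp160 probe set 1452126_at read 310, 346 and 303 in controls, 505, 531 and 540 with cytochalasin D and 333, 342 and 389 in the double-drug group. Its log2 change with cytochalasin D was 0.69 ± 0.071 (adjusted p = 0.00604), with the double-drug arrays overlapping the controls. The other Zfp160 probe set, 1439073_at, gave a log2 change of 0.065 (adjusted p = 1.0), so the probe sets of this gene disagreed. Zfp954 read 196, 209 and 164 in controls, 350, 318 and 301 with cytochalasin D and 264, 270 and 252 in the double-drug group (log2 change 0.72, adjusted p = 0.0132), and its call was lost only without cytochalasin D replicate 3 (adjusted p = 0.0634). Zfp408, linked in human to an inherited disorder of retinal vessels, had a log2 change of 0.43 (adjusted p = 0.046), which was lost without any 1 of 7 arrays.

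**Figure D3:**
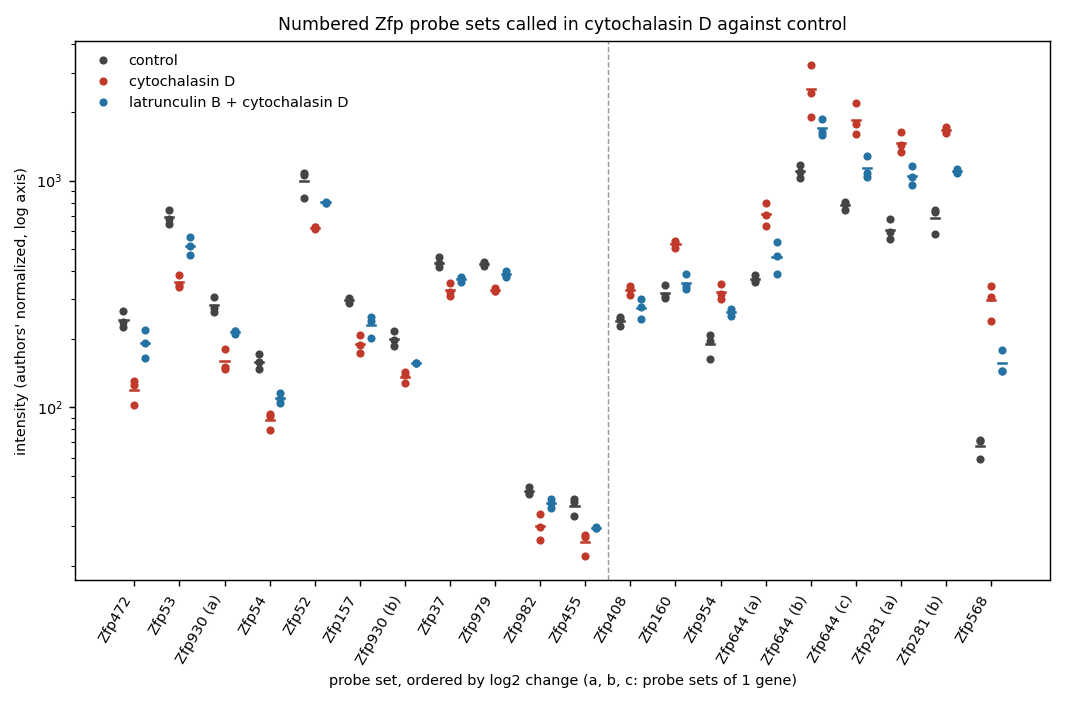
Intensity (y axis, log scale) on each of the 9 arrays for the 20 numbered Zfp probe sets called in cytochalasin D against control, ordered by log2 change, with points for arrays and short bars for group means. The 11 left of the dashed line fell and the 9 to its right rose, and the cytochalasin D points stand apart from the control points in every one, as with Zfp568 (241 to 342 against 59.3 to 71.6).

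Among the genes that fell, Zfp472 and Zfp53 changed most. Zfp472 read 227, 266 and 238 in controls, 131, 102 and 125 with cytochalasin D and 191, 219 and 165 in the double-drug group. The cytochalasin D mean was 49.0% of the control mean (log2 change -0.94 ± 0.12, adjusted p = 0.0152), and the call was lost without control replicate 3, control replicate 7 or cytochalasin D replicate 3, with an adjusted p of up to 0.0693. Zfp53 probe set 1449414_at read 644, 742 and 679 in controls, 340, 346 and 382 with cytochalasin D and 563, 516 and 469 in the double-drug group. Its log2 change was -0.92 ± 0.082 (adjusted p = 0.00358), and its 3 groups were apart. A dim second probe set of Zfp53 had means of 8.44, 6.64 and 6.79 and was not called.

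Zfp930 fell on both of its probe sets. Probe set 1427518_at read 273, 308 and 264 in controls, 180, 147 and 151 with cytochalasin D and 210, 217 and 217 in the double-drug group (log2 change -0.77 ± 0.082, adjusted p = 0.00723). Probe set 1434097_at read 186, 198 and 217 in controls, 128, 139 and 143 with cytochalasin D and 156, 156 and 157 in the double-drug group (-0.50 ± 0.058, adjusted p = 0.0095). Both showed the same order of groups with no overlap.

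Zfp54, a chromosomal neighbour of Zfp53, read 172, 158 and 147 in controls on probe set 1419239_at, 93.3, 91.4 and 79.7 with cytochalasin D and 104, 108 and 116 in the double-drug group. Its log2 change with cytochalasin D was -0.75 ± 0.072 (adjusted p = 0.00466). Zfp52, next to Zfp53, read 842, 1057 and 1076 in controls on probe set 1426471_at, 623, 611 and 624 with cytochalasin D and 809, 800.1 and 800.1 in the double-drug group. Its log2 change was -0.66 ± 0.087 (adjusted p = 0.0164), a call lost without any 1 of 4 arrays (adjusted p of up to 0.0811). The arrays of the cytochalasin D and double-drug groups agreed closely in Zfp52, and most of the spread was among the controls. The dim second probe sets of Zfp54 (log2 change 0.001) and Zfp52 (-0.25) were not called.

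Zfp979 had the smallest SE among the calls. It read 437, 433 and 418 in controls, 325, 327 and 336 with cytochalasin D and 383, 377 and 400.2 in the double-drug group, a log2 change with cytochalasin D of -0.37 ± 0.028 (adjusted p = 0.00207). The calls of Zfp157 (-0.60, adjusted p = 0.0263), Zfp37 (-0.39, adjusted p = 0.0273), Zfp982 (-0.36, adjusted p = 0.046) and Zfp455 (-0.35, adjusted p = 0.0476) were each lost when any 1 of 6, 7, 8 and 8 arrays, respectively, was left out. The second Zfp157 probe set had a log2 change of -0.43 (adjusted p = 0.335), that of Zfp37 had a log2 change of -0.13, and the other Zfp982 probe sets had -0.066 and 0.00. In all, 10 of the 20 calls held whichever single array was left out: Zfp568, both Zfp281 probe sets, Zfp644 (1429623_at), Zfp160, Zfp53, Zfp54, both Zfp930 probe sets and Zfp979.

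The genes were next ordered along the chromosomes, since Zfp53, Zfp54 and Zfp52 are neighbours. Runs were taken as numbered Zfp genes with at most 1 other protein-coding gene between them and at least 4 genes tested, a definition that uses gene order alone but was chosen with the values known. There were 10 runs with 73 tested genes. In the longest, from Zfp677 to Zfp946, 17 of 18 genes were tested and the log2 change with cytochalasin D was below 0 in 17 of 17, from -0.92 (Zfp53) to -0.12 (Zfp944), with a median of -0.33. Of these, 3 passed the test, Zfp54, Zfp53 and Zfp52. Zfp51, which lies between Zfp54 and Zfp53, read 498, 523 and 545 in controls, 261, 344 and 389 with cytochalasin D and 422, 468 and 462 in the double-drug group (log2 change -0.65 ± 0.13, adjusted p = 0.085). Zfp760 had a log2 change of -0.80 ± 0.16 (adjusted p = 0.0838), with means of 143, 76.2 and 104 in control, cytochalasin D and the double-drug group.

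In the double-drug group, set against the same 3 control arrays, 15 of these 17 genes were below 0 (median -0.18), the exceptions being Zfp948 (0.17) and Zfp983 (0.10, adjusted p = 1.0 for both), and no gene was called. When 1 array was left out, 16 or 17 genes stayed below 0 with cytochalasin D and 13 to 15 in the double-drug group. After quantile normalization the counts were 17 and 15. Related zinc finger transcripts are similar in sequence, so probes of 1 gene may bind RNA of another, and values of close relatives are uncertain in that respect. The promoter windows are also alike: over the aligned part, Zfp54 and Zfp53 had 170 of 233 columns identical (73.0%), Zfp54 and Zfp52 71.6%, and Zfp53 and Zfp52 72.7%, as the stretches of Zfp54 and Zfp53 above show. Against the promoter of Zfp281, a member outside this run, local alignments covered 38 to 63 columns at 58.7% to 63.2%.

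**Figure D4:**
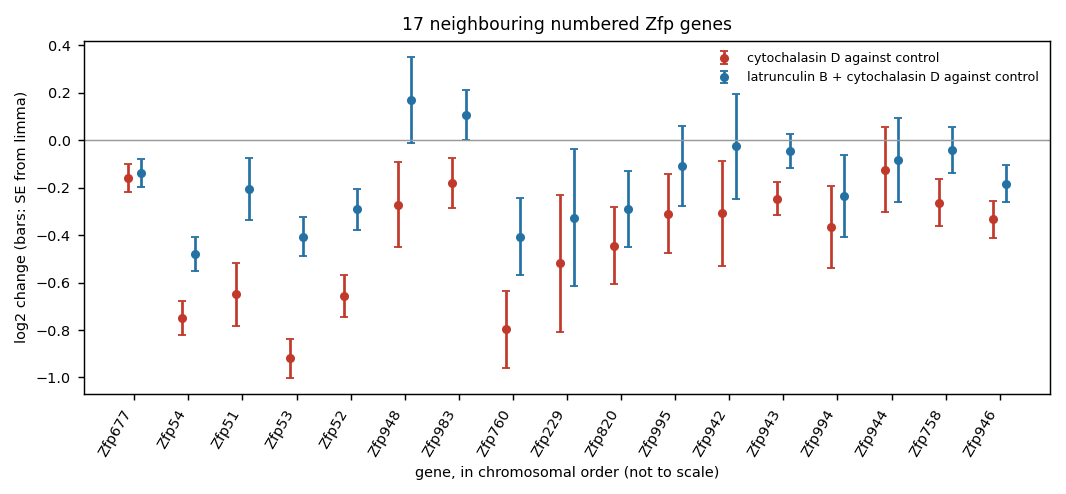
Log2 change against control (y axis, points with SE bars from limma) of the 17 tested genes from Zfp677 to Zfp946, in chromosomal order (x axis, not to scale), for cytochalasin D and for the double-drug group. All 17 cytochalasin D points lie below 0, from -0.92 at Zfp53 to -0.12 at Zfp944, and 15 of the 17 double-drug points do.

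The other 9 runs held 4 to 12 tested genes each. In 3 of them 4 of 4 tested genes were below 0 with cytochalasin D: Zfp472 to Zfp563 (median -0.38, Zfp472 called lower), Zfp709 to Zfp961 (-0.16) and Zfp579 to Zfp580 (-0.027). From Zfp84 to Zfp146, 10 of 12 were below 0 with a median of -0.12, and this run held Zfp568, which rose. From Zfp712 to Zfp459, 7 of 8 were below 0 and Zfp455 was called lower, and from Zfp180 to Zfp94, 7 of 8 were below 0 with 0 calls. The shift was smaller or absent from Zfp786 to Zfp467 (5 of 7 below 0, median -0.058), from Zfp60 to Zfp850 (3 of 5, -0.079) and from Zfp868 to Zfp866 (2 of 4, 0.003), and in the last of these 0 of 4 were below 0 in the double-drug group (median 0.087). Over all 10 runs, 63 of 73 genes were below 0 (86.3%, median -0.18, 5 called lower and 1 higher). Of the 198 numbered Zfp genes outside runs, 142 were below 0 (71.7%, median -0.054, 5 called lower and 5 higher). This difference was not tested.

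In the double-drug group, 0 of the 457 probe sets were called lower or higher than control by limma, against a background of 0.0111% lower and 0.1% higher. At an unadjusted p under 0.05, 33 were lower, 7.22% against 2.61% of all, and 15 were higher, 3.28% against 2.67%. The median log2 change was -0.016, against 0.003 over all probe sets tested, and 55.8% of the members were below 0 against 43.9%. Before the intensity threshold the 574 probe sets had a median of 0.0, with 48.6% below 0, against 30.3% of all probe sets with no filter. Among probe sets with a mean of 100 or more the shares were close, 53.8% of members and 52.4% of all, whereas under 20 they were 49.6% and 26.6%. Between 20 and 100 they were 65.6% and 55.1%, with medians of -0.071 and -0.015. Replicates of the same number deviated together here, and with the replicate number as a block 1 probe set was called lower and 2 higher, with 0.455% of all probe sets called. These were Zfp763 (-0.54, blocked adjusted p = 0.0311), Zfp281 on 1426377_at (0.77, blocked adjusted p = 0.0465) and Zfp655 on 1428341_at (0.52, blocked adjusted p = 0.0484). Without the block, Zfp281 had an adjusted p of 0.0893 on that probe set and 0.0753 on the other (0.68). Leaving out control replicate 1 gave 3 calls lower, and leaving out control replicate 7 gave 1 call higher, with no share of all probe sets given here for those fits.

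The members with the largest changes in the double-drug group are given beside their cytochalasin D values, and both contrasts share the same 3 control arrays. Zfp568 had a log2 change of 1.05 ± 0.14 in the double-drug group (adjusted p = 0.0769), against 1.90 with cytochalasin D. Zfp82 read 72.0, 71.8 and 54.1 in controls, 27.2, 27.4 and 34.9 with cytochalasin D and 27.7, 31.3 and 45.1 in the double-drug group. Its controls lay above both other groups, which overlapped, with log2 changes of -0.84 (adjusted p = 0.0573) and -0.70 (adjusted p = 0.282). Zfp763 read 367, 300.4 and 307 in controls, 266, 190 and 201 with cytochalasin D and 256, 186 and 214 in the double-drug group, with log2 changes of -0.54 in both. Zfp655 read 1812, 2364 and 2249 in controls, 2230, 2863 and 3255 with cytochalasin D and 2588, 3242 and 3449 in the double-drug group on 1428341_at, so that only the double-drug arrays were clear of the controls. On its probe set 1431252_a_at the log2 changes were 0.75 (adjusted p = 0.0596) and 0.70 (adjusted p = 0.222). Zfp324 (-0.60, adjusted p = 0.855), Zfp54 (-0.48, adjusted p = 0.101) and Zfp41 (-0.44, adjusted p = 0.912) were the other low values without overlap.

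Set directly against the double-drug group, cytochalasin D gave 1 member lower and 1 higher (0.219% each), against backgrounds of 0.0111% and 0.248%. Zfp979 was lower by a log2 difference of -0.22 (adjusted p = 0.0463), and Zfp160 higher by 0.55 (adjusted p = 0.0493). Both calls were lost whichever of the 9 arrays was left out. At an unadjusted p under 0.05, 30 members were lower (6.56% against 1.75%) and 16 higher (3.5% against 2.47%). The median difference was -0.022 against -0.006 over all probe sets tested, and 70.5% of the members were below 0 against 62.6%. The share did not clearly exceed that of all probe sets in every setting. With no intensity filter, 73.9% of the 574 numbered Zfp probe sets lay below 0, against 74.2% of the whole array. The shares were 67.6% and 65.3% without cytochalasin D replicate 1. By intensity, they were 72.3% of members and 78.0% of all under a mean of 20, and 59.2% and 50.3% between 20 and 100. At a mean of 100 or more they were 76.4% and 55.7%, with medians of -0.083 and -0.016. Same-numbered replicates deviated together in this contrast too, and with that block the calls were Zfp61 (-0.40, blocked adjusted p = 0.0331) and Zfp330 (-0.22, blocked adjusted p = 0.047) lower and Zfp644 (0.70, blocked adjusted p = 0.0495) higher, while neither unblocked call was among them. All probe sets called under the block came to 0.367%.

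Some of the larger differences between the drug groups that were not called without the block are given as values. Zfp568 had a log2 difference of 0.86 ± 0.14 (adjusted p = 0.123) and Zfp644 one of 0.70 on 1429623_at (adjusted p = 0.197). Zfp281 had one of 0.60 on 1452045_at (adjusted p = 0.0936). Zfp472 had a difference of -0.61 (adjusted p = 0.231) and Zfp53 one of -0.51 (adjusted p = 0.114). Zfp948 read 1344, 1670 and 1745 in controls, 1024, 1361 and 1589 with cytochalasin D and 1599, 1756 and 1999 in the double-drug group, a difference of -0.44 (adjusted p = 1.0). Zfp180 had a difference of -0.42 (adjusted p = 0.921).

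Motifs were searched on both strands of the 300-base windows, and a match describes letters and is no evidence of binding. The Zfp143 motif (ACTACA, any 1 base, TTCC) was in 11.7% of the 274 windows of numbered Zfp genes, against 1.02% of all 32851 windows. It lay in windows of 32 genes, of which 0 were called in cytochalasin D against control, beside 14 of all 224 numbered Zfp genes with a window (6.25%). With the replicate number as a block, 1 probe set of the motif gene Zfp790 was called lower (-0.61, blocked adjusted p = 0.0245, against 0.0523 without the block). Their median log2 change was -0.15, against -0.098 for the 192 genes without it. The ETS motif CCGGAAG was in 20.8% of Zfp windows against 8.86%, and 8 windows held both motifs, overlapping in 1. The CCAAT box (CCAAT) was in 45.3% against 37.4%, the GC box (GGGCGG) in 47.4% against 35.7% and the TATA box (TATAAA) in 6.93% against 13.6%. The CArG box was in 1.09% against 1.63%, the AP-1 motif TGACTCA in 4.01% against 5.20% and the CRE (TGACGTCA) in 2.55% against 1.79%. A window was given for 9 of the 10 genes called lower and 5 of the 6 called higher.

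Some of the brightest or best-known members did not pass the test, though intensities of different probe sets do not rank their transcripts. Zfp622, a ribosome biogenesis factor, had means of 5474 ± 790.5, 4992 ± 436 and 5414 ± 600.0 (SD, n = 3) in control, cytochalasin D and the double-drug group, with a log2 change of -0.13 with cytochalasin D. Zfp207, which acts at spindle and kinetochore, had 2658 ± 304, 2804 ± 348 and 2846 ± 333 (0.076) on the brightest of its 5 kept probe sets. Its other, dimmer probe sets had log2 changes of -0.54, -0.49, -0.455 and -0.092, so the probe sets of this gene disagreed in direction. Of these, 1434752_at (-0.54, adjusted p = 0.504) was called lower with the block (blocked adjusted p = 0.0486). Zfp445, a KRAB protein that protects imprints, had 1708 ± 272, 1552 ± 350.3 and 1728 ± 365 (-0.15). Zfp57, the other imprint protector, was dim at 21.1 ± 4.30, 23.3 ± 0.146 and 23.4 ± 0.342 (0.089). Zfp809, a silencer of retroviral DNA, had a log2 change of -0.23 (adjusted p = 0.774). The GC-box binder Zfp148 had -0.029, the haematopoietic and skeletal regulator Zfp521 0.004, Zfp384 0.066, the DBIRD complex member Zfp326 -0.13, the ubiquitin ligase Zfp91 -0.030 and Zfp598, a ligase that senses collided ribosomes, -0.026. None of these was called in any contrast by the fit without the block. Zfp143 was not analysed here, since no probe set was mapped to that symbol alone, and Zfp185 and Zfp423 were not kept.

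Related genes outside the set were also counted, on 1 probe set per gene. Over all probe sets tested, 0.422% were called lower and 1.14% higher with cytochalasin D. Lists this short cannot show whether their share of calls differs from these. Of 64 tested C2H2 genes with other names (Zbtb, Zscan, Zkscan, Klf and Sp series), Klf6 (0.84, adjusted p = 0.00527) and Zbtb10 (0.71, adjusted p = 0.0165) rose and Zbtb14 fell (-0.56, adjusted p = 0.0111) with cytochalasin D. Klf10 had a larger fall that was not called (-1.48, adjusted p = 0.0606), with means of 3335 in controls and 1204 with cytochalasin D. The 133 probe sets of these C2H2 genes had a median of 0.001, and 48.9% were below 0. Falls of 0.5 or more were seen in 8 of them (6.02%, beside 4.60% of the numbered Zfp members) and rises of that size in 10 (7.52%, beside 2.41%), a difference that was not tested. Among 28 tested short-lived transcripts outside the Zfp names, Bcl6, a transcriptional repressor, rose (0.77, adjusted p = 0.0349) and 0 fell, with a median of 0.12. Of 24 corepressor and heterochromatin genes with which KRAB proteins work, and of 39 genes of mRNA decay, 0 were called in either direction, with medians of 0.002 and 0.016. The summed intensity of the decay genes was nonetheless 28490 to 31140 in controls, 25960 to 27520 with cytochalasin D and 28080 to 29980 in the double-drug group. The cytochalasin D arrays thus lay below both others in this sum, in which bright genes weigh most, whereas only 18 of the 39 genes lay below 0. Among the decay genes, the mRNA-destabilising proteins Zfp36l2 (-0.63, adjusted p = 0.186) and Zfp36l1 (-0.52, adjusted p = 0.322) had bright transcripts. Their means were 5149 and 4252 in controls and 3343 and 2965 with cytochalasin D, so these 2 genes weigh heavily in the lower sum, which does not describe the list as a whole. Their part in the results was not tested. The list of 12 Zfp genes with a role outside DNA binding also had 0 calls and a median of -0.027. In the double-drug group 0 genes of these lists were called, against 0.0111% lower and 0.1% higher of all probe sets tested.

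At the threshold of the selection, the 3 members just inside were Zfp974 on 1441059_at (above the percentile on 3 arrays, intensities 5.54 to 6.78), Zfp558 on 1430973_at (7 arrays, 6.16 to 6.33) and Zfp352 on 1425879_at (9 arrays, 6.28 to 6.37). Just outside were Zfp60 on 1430187_at (2 arrays, 6.13 to 6.30), Zfp423 (0 arrays, 5.95 to 6.25) and Zfp454 (0 arrays, 6.09 to 6.32). The percentile itself lay between 6.16 and 6.35 on the 9 arrays. Values this low hardly differed between arrays, and none of these members was called.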

How the data were processed

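RNA of 9 NIH 3T3 cultures (3 per group) was measured on Affymetrix arrays. The deposited intensities, normalized by the authors, are linear, with 1 value for each probe set on each array. Per the submitters' processing notes, MAS5 and GCRMA were used. Which of them made these values is not stated there, so background correction was taken as given. Array medians lay between 7.57 and 7.84, and precision is limited by the 3 arrays of a group.

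Gene symbols came from the platform annotation, and gene order from RefSeq on GRCm38.p6, used for names and neighbours. A build that goes with the deposited values is not given in the sources used here. Probe sets above the 40th percentile of their array on at least 3 arrays were tested, after 64 control probe sets were left out. Linear models on log2(intensity + 16) were fitted with limma 3.58.1 in R 4.3.3 (all 9 arrays, 1 coefficient per group, eBayes), with two-sided tests and Benjamini-Hochberg adjustment over 27010 probe sets in each of 3 contrasts. The fit was tested on simulated data. The blocked fit adds the replicate number. Deviations of same-numbered arrays from their group means correlated at 0.834, 0.413 and 0.663 between control and double-drug arrays and at 0.727, 0.411 and 0.756 between the drug groups, for replicates 1, 3 and 7. Promoters were aligned locally with Biopython 1.88.

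The members and lists were chosen with earlier results of these data known. Named genes are, per contrast, up to 10 called members in each direction or, with under 5 calls, the 5 lowest and 3 highest without overlap between groups. To these come the 5 brightest members, genes whose probe sets disagreed, members beside the threshold and 13 fixed genes, with up to 4 members per other list. Zfp51, Zfp760, Zfp944, Zfp983, Zfp61, Zfp330, Zfp790 and the genes of the motif examples were named after their values were seen. Alternatives were another pseudocount, filter, normalization or prior, the block, 6 arrays only, 1 probe set per gene, members without cross-hybridising probe sets, updated symbols and leaving out each array.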

Additional observations from a re-analysis of the deposited data

How the results depend on the processing

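Among the members, no median of a contrast changed sign under the alternatives tried on the 457 probe sets, but shares set against all probe sets were less stable. For cytochalasin D against the double-drug group, 70.5% of members below 0 stood against 62.6% of all. With no filter, 73.9% of the 574 numbered Zfp probe sets stood against 74.2% of all. For cytochalasin D against control, the share of all probe sets was 54.4%, beside 66.5% of members. It was 48.8% with no filter, beside 62.2% of the 574, and 45.3% without control replicate 1, beside 65.9% of members. For cytochalasin D against control, the 11 members called lower became 27 with the replicate number as a block, 7 with no filter and 3 with 6 arrays only, and ranged from 5 to 15 when 1 array was left out. The 9 called higher became 5 with 6 arrays only. In this contrast the deviations of replicates 1, 3 and 7 correlated at 0.710, 0.0763 and 0.654. Between control and cytochalasin D arrays of different number, the correlations ran from -0.72 to 0.39. Same-numbered arrays thus deviated together for replicates 1 and 7, but hardly for replicate 3. The main fit has no block because the series design names none, and whether the numbers pair the arrays was not settled. Of the 38 members called with the block, 18 were among the 20 called without it, Zfp408 and Zfp982 being the others. With the block, 3.87% of all probe sets tested were called in this contrast, so calls rose beyond the members too. Shares of all probe sets called are not given for the settings other than the block, so those member counts have no background here. The median of -0.039 was -0.061 with a pseudocount of 1 and -0.099 with 1 probe set per gene, and ran from -0.061 to -0.017 without 1 array. In the double-drug group, 0 calls lower became 1 with the block and 0 to 3 without 1 array, and 0 higher became 2 with the block and 0 to 1 without 1 array. For cytochalasin D against the double-drug group, the 1 call lower was 2 with the block, 0 with a pseudocount of 1, no filter, or a trended and robust prior, and 0 to 1 without 1 array. The 1 call higher was 0 with a pseudocount of 64, no filter, or that prior, and 0 to 1 without 1 array. The median of -0.022 was -0.036 with a pseudocount of 1, -0.013 with 64, -0.032 after quantile normalization and -0.061 with 1 probe set per gene, and -0.038 to -0.016 without 1 array. Where a value moved, the cause was not tested, and this holds for the 6-array fit too, which has fewer arrays and its own estimate of the spread. Over 162 results for single probe sets, 2751 recomputed values held 2553 on the same side of the threshold with the same direction, 100 calls lost, 23 gained and 75 uncalled values that changed sign. Members near the array floor (137 under a mean of 20) can show little change at this signal.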
